A study of Mus musculus with 12 samples.

Results

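Cd5l, Vsig4, Clec4f, Spic, Hmox1, Slc40a1 and Cd163 are 7 genes known from macrophages that clear and recycle blood components, and their transcripts were followed in whole lung through adult life and old age. The lungs came from C57BL/6NCr mice, a C57BL/6 substrain, at 6, 12, 20 and 30 months, written 6M, 12M, 20M and 30M, with 3 libraries at each age. The strain is the same at every age, and the labels record no treatment, allele or transgene. They give neither sex nor which animal a library came from, so every p-value below measures the spread between libraries, which may be technical in part. Library totals ran from 12152066 to 15058628 gene counts.

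The 7 genes were taken by symbol from the 55487 genes of the count table, and each symbol matched 1 gene. They were chosen by their levels at 30M against 6M, known from an earlier reading of the same counts. Differences of these genes that involve 30M or 6M are therefore a description: their calls are counted once beside the share of all genes called, and nothing is read from them. The comparison of 20M with 12M uses neither age. All 7 passed the filter on low counts (18407 genes did), which asked for about 0.770 CPM (counts per 1e+06 counts of a library) in at least 3 libraries. Vsig4 reached that level in the 30M libraries alone. Clec4f reached it in the 3 libraries of 30M and 1 of 20M. Cd5l reached it in all libraries of 30M, 2 of 12M and 1 of 20M.

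Kupffer cells are the resident macrophages of the liver sinusoids, and red pulp macrophages are their counterparts in the spleen. Both engulf aged red blood cells, break down haemoglobin, open the haem ring with haem oxygenase, and return the iron to plasma through the iron exporter ferroportin. The lung has its own macrophages: alveolar macrophages in the airspace and interstitial macrophages in the tissue. In whole-lung RNA, more cells of a type and more transcript per cell cannot be told apart.

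The set falls into 3 roles. Cd5l encodes a secreted scavenger-receptor family protein of tissue macrophages, Vsig4 a complement receptor that captures C3-coated particles, Clec4f a galactose-binding C-type lectin known in mice as a Kupffer cell marker, and Cd163 the receptor for haptoglobin-haemoglobin complexes. Spic encodes an ETS-family transcription factor needed for red pulp macrophages in mice. Hmox1 encodes the inducible haem oxygenase and Slc40a1 encodes ferroportin.

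The promoters of Cd5l, Vsig4, Clec4f and Spic are shown because these genes, low or absent in young lungs, carried the age pattern described below. Each is the 250 bases before the RefSeq start (GRCm38.p6), written 5′ to 3′ on the gene's strand. Capitals mark matches to any of 3 searched motifs, on either strand: GAGGAA, a core shared by binding motifs of PU.1 and related ETS factors; AGGAAGT, another ETS-type core; and TGACNNNGC, the core of the antioxidant response element. GAGGAA and AGGAAGT can overlap each other. The Cd5l promoter lies at chr3:87357631-87357880 (+ strand), that of Vsig4 at chrX:96293439-96293688 (- strand), that of Clec4f at chr6:83656117-83656366 (- strand) and that of Spic at chr10:88683024-88683273 (- strand).
Cd5l: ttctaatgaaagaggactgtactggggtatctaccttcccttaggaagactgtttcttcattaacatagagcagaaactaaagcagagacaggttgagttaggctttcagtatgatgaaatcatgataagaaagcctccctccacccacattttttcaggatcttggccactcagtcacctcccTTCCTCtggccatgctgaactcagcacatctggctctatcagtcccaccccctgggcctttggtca
Vsig4: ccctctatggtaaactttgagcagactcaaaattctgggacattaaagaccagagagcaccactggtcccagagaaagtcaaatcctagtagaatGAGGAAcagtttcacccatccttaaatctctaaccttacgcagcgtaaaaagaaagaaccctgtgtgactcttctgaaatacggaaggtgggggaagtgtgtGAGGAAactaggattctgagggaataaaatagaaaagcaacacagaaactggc
Clec4f: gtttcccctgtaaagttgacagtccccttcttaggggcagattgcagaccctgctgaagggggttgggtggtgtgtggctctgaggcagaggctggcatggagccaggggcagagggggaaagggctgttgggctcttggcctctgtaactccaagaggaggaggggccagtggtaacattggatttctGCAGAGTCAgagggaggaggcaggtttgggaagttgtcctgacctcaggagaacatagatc
Spic: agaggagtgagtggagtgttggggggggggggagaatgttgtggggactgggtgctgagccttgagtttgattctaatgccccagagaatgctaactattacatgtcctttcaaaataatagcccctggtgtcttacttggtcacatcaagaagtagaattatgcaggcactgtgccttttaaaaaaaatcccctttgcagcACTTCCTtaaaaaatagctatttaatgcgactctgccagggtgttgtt

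The Cd5l promoter held 1 GAGGAA on the opposite strand, 66 to 61 bases before the start. The Vsig4 promoter held 2 on its own strand, at 155 to 150 and 53 to 48 bases before the start. Clec4f held 1 TGACNNNGC on the opposite strand, 61 to 53 bases before its start, and Spic 1 AGGAAGT on the opposite strand, 48 to 42 bases before its start. For both, the RefSeq start lies inside the span of the deposited gene, and so does the match. The Cd163 promoter held none of the 3 motifs. Of 32817 distinct promoters of the same length, 23.3% held GAGGAA, 7.69% held AGGAAGT and 10.2% held TGACNNNGC, so such matches are common. The promoter table had entries for 5 of the 7 genes, with none for Hmox1 or Slc40a1. A match describes letters and is not a measured binding site.

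Cd5l (ENSMUSG00000015854, chr3:87357881-87371073, GRCm38) was near the detection limit at 6M and higher in all 3 libraries of 30M, with 30M_220 far below 30M_216 and 30M_218. Libraries 6M_201, 6M_202 and 6M_203 held 0.373, 0.743 and 0.323 CPM. Libraries 12M_206, 12M_207 and 12M_208 held 6.76, 2.02 and 0.422 CPM. Libraries 20M_213, 20M_221 and 20M_222 held 3.23, 0.313 and 0.665 CPM. All 3 libraries of 30M stood above the other 9, with 84.6 CPM in library 30M_216, 82.8 CPM in library 30M_218 and 9.57 CPM in library 30M_220. The means were 0.480 ± 0.229 CPM at 6M, 3.07 ± 3.30 CPM at 12M, 1.40 ± 1.59 CPM at 20M and 59.0 ± 42.8 CPM at 30M (SD, n = 3 each). The log2 fold change was 6.92 (SE 1.28) for 30M over 6M, 4.24 (SE 1.04) over 12M and 5.43 (SE 1.13) over 20M. Without 12M_206 the value over 12M was 5.58. The value over 20M was 6.96 without 20M_213, and 4.70 without 20M_221, 20M_222 and 30M_220 together. The 6M, 12M and 20M libraries overlapped one another.

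Vsig4 (ENSMUSG00000044206, chrX:96247203-96293438) was likewise near the detection limit at 6M, 12M and 20M and higher at 30M. Its values were 0.149, 0.495 and 0.243 CPM at 6M, then 0.676, 0.253 and 0.0845 CPM at 12M, and 0.616, 0.188 and 0.148 CPM at 20M. At 30M, library 30M_216 held 39.1 CPM, library 30M_218 held 10.3 CPM and library 30M_220 held 2.59 CPM. The 3 younger ages overlapped and rested on 11, 13 and 13 counts in all, whereas the 30M libraries together held 651. The log2 fold change was 5.84 (SE 1.02) for 30M over 6M, 5.6 over 12M and 5.76 over 20M (SE 1.0 for both). Without library 30M_216 the 30M mean was 6.46 CPM and the log2 fold changes were 4.41 over 6M, 4.18 over 12M and 4.34 over 20M. Without 12M_206 the value over 12M was 6.60, and without 20M_213 the value over 20M was 6.64.

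Clec4f (ENSMUSG00000014542, chr6:83644542-83656187) was not counted in any library of 6M or 12M. At 20M, library 20M_213 held 15 counts, or 1.15 CPM, and libraries 20M_221 and 20M_222 held 0. At 30M, library 30M_216 held 676 counts (54.5 CPM), library 30M_218 held 20 (1.64 CPM) and library 30M_220 held 60 (3.88 CPM). Every 30M library was thus above every younger one, and library 30M_216 carried 90.8% of the summed 30M level. Set against a floor of 3 counts over the 3 libraries of a group, the pooled 30M level was 238 times the 6M floor of 0.0792 CPM. It was 233 times the 12M floor of 0.0810 CPM. Both values rest mostly on library 30M_216. Against the 15 counts of 20M the pooled 30M level was 53.5-fold higher, with a 95% counting interval of 32.2 to 96.1. That interval covers counting error only and leaves out the spread between libraries. The fitted log2 fold change over 20M was 5.74, with an SE of 2.0. Without library 30M_216 the 30M mean was 2.76 CPM, 7.17 times the 20M mean. Cd207, which encodes langerin and is the next gene on the same chromosome, 15028 bases away, averaged 0.804 CPM at 30M and 0.811 CPM at 6M.

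Cd163 (ENSMUSG00000008845, chr6:124304656-124330527) was present at every age and did not separate the ages. It held 7.16, 6.27 and 6.87 CPM at 6M, then 6.61, 6.23 and 8.02 CPM at 12M. The 20M libraries held 10.8, 6.63 and 15.1 CPM and the 30M libraries held 19.4, 7.05 and 18.9 CPM. Library 30M_218, which was high in Cd5l, lay within the 6M range of Cd163. Its log2 fold change was 1.16 (SE 0.36) for 30M over 6M, 1.12 (SE 0.36) over 12M and 0.49 (SE 0.35) over 20M. Without library 30M_218 the 30M mean was 19.2 CPM, 2.83 times the 6M mean.

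Spic (ENSMUSG00000004359, chr10:88674772-88685015) separated 30M from every younger age with the libraries of 30M close together. It held 1.57, 1.07 and 0.970 CPM at 6M, 1.58, 0.505 and 0.929 CPM at 12M, and 2.15, 2.06 and 0.665 CPM at 20M. At 30M it held 6.13, 7.71 and 4.98 CPM in libraries 30M_216, 30M_218 and 30M_220. The highest of the 9 younger libraries, 20M_213, was below the lowest 30M library. In log2 terms the fold change was 2.37 (SE 0.47) for 30M over 6M, 2.62 (SE 0.48) over 12M and 1.93 (SE 0.45) over 20M.

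Hmox1 (ENSMUSG00000005413, chr8:75093621-75100589) was present at all ages and highest at 30M. Its values were 29.9, 33.4 and 38.3 CPM at 6M, 33.0, 38.7 and 37.2 CPM at 12M, and 30.3, 29.0 and 34.9 CPM at 20M. The 30M libraries held 62.9, 56.6 and 44.5 CPM, all above the other 9. On the log2 scale the fold change was 0.69 (SE 0.15) for 30M over 6M, 0.59 (SE 0.15) over 12M and 0.80 (SE 0.15) over 20M.

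Slc40a1 (ENSMUSG00000025993, chr1:45908068-45926523) was high in 1 library. It held 13.3, 19.8 and 8.16 CPM at 6M, 8.64, 12.2 and 10.6 CPM at 12M, and 12.3, 17.3 and 8.79 CPM at 20M. At 30M, library 30M_216 held 54.2 CPM, and libraries 30M_218 and 30M_220 held 19.6 and 12.1 CPM, inside the 6M range. Its log2 fold change was 1.05 (SE 0.49) for 30M over 6M, 1.45 (SE 0.50) over 12M and 1.15 (SE 0.49) over 20M. Without library 30M_216 these were 0.20, 0.59 and 0.31, and the 30M mean was 1.15 times the 6M mean.

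**Figure D1:**
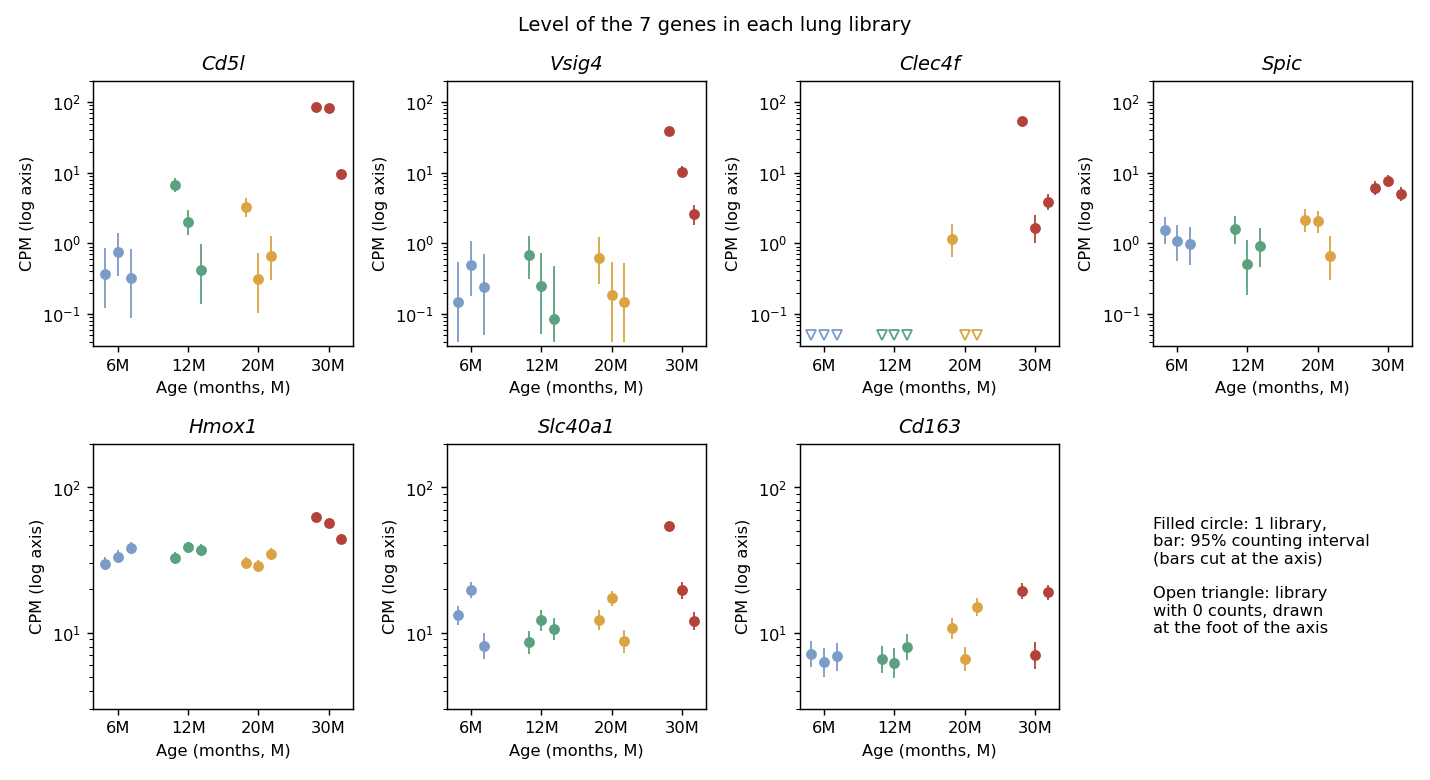
Level of each of the 7 genes in each library, in CPM on a log axis, by age in months. Points are single libraries with 95% counting intervals, and open triangles mark libraries with 0 counts. The 30M points stand above all others for Cd5l, Vsig4, Clec4f, Spic and Hmox1, while those of Slc40a1 and Cd163 overlap the younger ages.

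Counted over the set, every 30M library lay above every 6M library for 5 of the 7 genes, against 9.89% of all tested genes. The same 5 genes did so against 12M (7.5% of all tested genes) and against 20M (5.69%). The exceptions were Slc40a1 and Cd163. By edgeR's quasi-likelihood test with Benjamini-Hochberg adjustment over all 18407 genes, called at an adjusted p under 0.05, 4 members (Cd5l, Vsig4, Spic and Hmox1) passed as higher at 30M than at 6M, which is no test of them, since 30M and 6M chose them. Of all tested genes 1.96% were called, 1.93% higher and 0.0272% lower. Against 12M, 2 members (Vsig4 and Spic) passed, beside 0.712% of all genes, of which 0.657% were higher and 0.0543% lower. Against 20M, Vsig4 passed, beside 0.212%. All 3 comparisons share the 30M libraries behind the choice, through which alone Vsig4 met the filter on low counts, so the counts are not read further. No member passed when any single 6M library was left out of the 30M against 6M comparison. Vsig4 and Spic passed without 30M_216, Vsig4 and Cd163 without 30M_218, and the 4 and Cd163 by DESeq2. Against 12M the count was 1 without 6M_202 or 6M_203 and 0 without any 12M library, 30M_216 or 30M_218. Against 20M it was 3 without 30M_220 and 0 without any other single library.

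At 20M against 12M, the comparison that shares no library with the choice, none of the 7 genes was called by edgeR or DESeq2, 0 had an unadjusted p under 0.05, and none had its 20M libraries all above its 12M libraries, which 7.59% of all tested genes had. The log2 fold change of 20M over 12M was -1.19 for Cd5l (SE 1.13, adjusted p = 0.678, edgeR) and -0.16 for Vsig4 (SE 1.25, adjusted p = 0.965). It was 0.68 for Spic (SE 0.48, adjusted p = 0.571) and -0.21 for Hmox1 (SE 0.15, adjusted p = 0.587). It was 0.29 for Slc40a1 (SE 0.50, adjusted p = 0.828) and 0.63 for Cd163 (SE 0.36, adjusted p = 0.492). Clec4f had 15 counts at 20M and 0 at 12M (adjusted p = 0.694), and Vsig4 had 13 at each age. Both genes met the filter on low counts only through the 30M libraries. With so few counts a call was hardly possible, so its absence for these 2 genes says little. No gene in the whole table was called between these ages by edgeR (0%), although 2062 had an unadjusted p under 0.05 and DESeq2 called 9, and with SEs near 1 for Cd5l and Vsig4 a several-fold change could go uncalled. Leaving out library 12M_206, the highest at 12M for both genes, turned the sign, to 0.15 for Cd5l and 0.84 for Vsig4. Vsig4 also turned, to 0.12 and 0.15, without library 20M_221 or 20M_222. Without library 20M_213 the values were -2.70 for Cd5l and -1.02 for Vsig4.

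At 20M and at 12M against 6M no member passed by edgeR or DESeq2, again as a description. At 20M against 6M 0.0163% of all genes were called and 7.77% had every 20M library above every 6M library. At 12M against 6M the shares were 0% and 6.3%. Cd5l had the largest fitted log2 fold change of the 6 genes other than Clec4f in both, 1.5 (SE 1.44) at 20M and 2.68 (SE 1.34) at 12M. Without library 20M_213 the 20M value was -0.03, and without library 12M_206 the 12M value was 1.34.

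Per kilobase of exon, Hmox1 and Cd5l had the highest means at 30M, 31.2 ± 5.32 and 29.0 ± 21.0 CPM per kb (SD, n = 3). Vsig4 followed with 11.7 CPM per kb and Clec4f with 8.10 CPM per kb, each with an SD larger than its mean. Slc40a1, Cd163 and Spic averaged 3.18, 2.77 and 1.63 CPM per kb. For each pair of neighbours in that order, the difference of the means was smaller than the larger of their SDs. At 6M Hmox1 led with 19.4 ± 2.41 CPM per kb, and the next, Slc40a1, averaged 1.53 CPM per kb. The other 5 ran from 0 for Clec4f to 1.24 CPM per kb for Cd163. Cd5l averaged 0.236 CPM per kb at 6M, and its 30M mean joins 2 high libraries and 1 low one.

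The 3 libraries of 30M were unlike in the scavenger and receptor genes and in Slc40a1, and alike in Spic and Hmox1. The highest 30M library exceeded the lowest by 33.2 times for Clec4f, 15.1 times for Vsig4, 8.84 times for Cd5l, 4.48 times for Slc40a1 and 2.76 times for Cd163. For Spic and Hmox1 the ratio was 1.55 and 1.41. The median over 17053 genes with a mean of at least 1 CPM was 1.45. Library 30M_216 was the highest for 6 of the 7 genes, and for 29.3% of all tested genes, with Spic highest in library 30M_218. It was also the highest for 7 of 7 lung epithelium genes, 5 of 7 monocyte genes and 8 of 10 NRF2 target genes, the lists with the largest shares. Other lists were near the share of all genes, with 3 of 9 interstitial macrophage, 9 of 32 haem and iron and 6 of 19 scavenging receptor genes. The monocyte genes Ly6c2, with 226, 68.6 and 32.1 CPM in 30M_216, 30M_218 and 30M_220, and Plac8, with 376, 130 and 57.9 CPM, had the same order as Vsig4. So did Ccr2, Vcan and F13a1. The other monocyte genes did not: Nr4a1 held 65.1, 87.1 and 97.0 CPM, and Ace held 740, 631 and 1443 CPM. The part of these genes in the levels of the 7 genes was not tested. Library 30M_220 was the lowest of 30M for Cd5l, Vsig4, Spic, Hmox1 and Slc40a1. Its lung epithelium genes summed to 40165 CPM, against 70118 CPM in 30M_216 and 63448 CPM in 30M_218. An earlier analysis also found a GC trend in 30M_220. The bearing of either on the 7 genes was not tested.

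**Figure D2:**
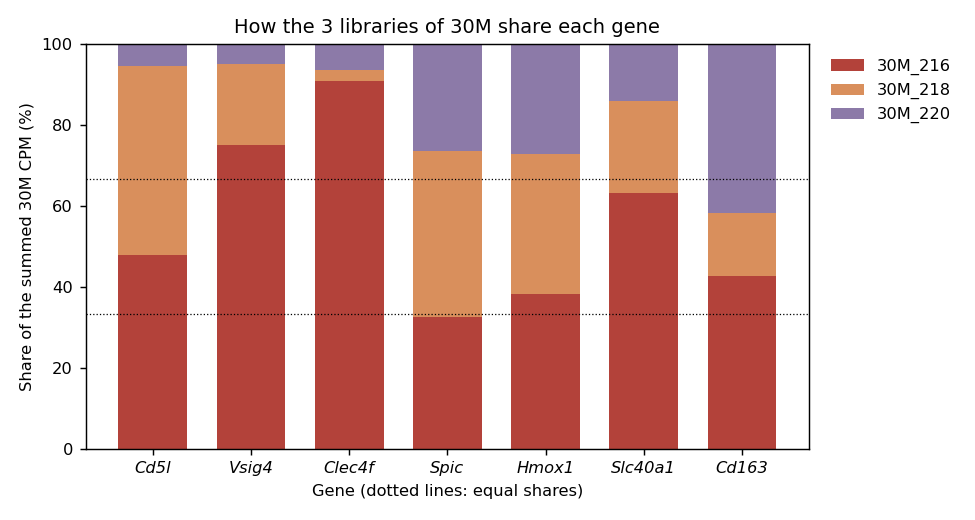
Share of the summed 30M level (percent of CPM) that each of the 3 libraries holds, for each of the 7 genes. Dotted lines mark equal shares. Library 30M_216 holds 90.8% of Clec4f and 75.2% of Vsig4, whereas Spic and Hmox1 are shared almost evenly.

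The genes did not keep 1 order over the 30M libraries. Cd5l was equal in libraries 30M_216 and 30M_218, with a ratio of 1.02 (95% counting interval 0.936 to 1.11), but 8.66 times higher in 30M_218 than in 30M_220. Clec4f ran the other way between those libraries, with a 30M_218 to 30M_220 ratio of 0.423 (0.241 to 0.712), and so did Cd163, with 0.372 (0.289 to 0.475). Vsig4 was 3.78 times higher in 30M_216 than in 30M_218, and 4.0 times higher in 30M_218 than in 30M_220. These intervals cover counting error of single libraries only.

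At 12M, library 12M_206 was the highest for Cd5l, Vsig4 and Spic. At 20M, library 20M_213 was the highest for Cd5l, Vsig4, Clec4f and Spic, and it was the one younger library with any Clec4f count. That is 3 of 7 genes (42.9%) beside 33.3% of all tested genes for 12M_206, and 4 of 7 (57.1%) beside 39% for 20M_213, so the counts were near those of all genes.

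Over the 12 libraries, Pearson's r of log2 CPM was highest for Cd5l with Vsig4, at 0.94, and was 0.79 over the 9 libraries without 30M. Vsig4 with Clec4f gave 0.92 over 12 and 0.49 over 9 libraries. Vsig4 with Hmox1 gave 0.87 over 12 and -0.24 over 9, and Spic with Hmox1 gave 0.64 over 12 and -0.86 over 9. The libraries share ages and the 30M ones stand apart, so these values describe the 12 libraries and carry no test. The closeness of Hmox1 to Vsig4 and Spic was thus present with the 30M libraries and absent without them.

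Genes outside the set with the most similar profiles were found for each member over the 12 libraries. For Cd5l they were Casp4, an inflammatory caspase (r = 0.95, and 0.90 without 30M), Ctss, which encodes the lysosomal protease cathepsin S (0.95 and 0.77), and Msr1, a class A scavenger receptor (0.95 and 0.95). For Vsig4 they were Lilra5, a leukocyte immunoglobulin-like receptor (0.98 and 0.79), Ctss (0.97 and 0.76) and Rab32, a small GTPase (0.96 and 0.66). Clec4f ran with Tlr7, the endosomal sensor of single-stranded RNA (0.96 and 0.75), Ms4a6b (0.95 and 0.74) and Tmem106a (0.95 and 0.73). Without 30M, Clec4f had counts in library 20M_213 alone, so its second values rest on that library. Spic ran with Tifab (0.97), Adap1 (0.96) and Gngt2, a G protein gamma subunit gene (0.94), which were 0.85, 0.80 and 0.75 without 30M.

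The 3 remaining members had other neighbours. Hmox1 was nearest to Vcan, which encodes the matrix proteoglycan versican (0.93, and 0.49 without 30M), Rab32 (0.91 and 0.17) and Nubp2 (0.91 and 0.69). Slc40a1 was nearest to Slfn1 (0.94 and 0.88), the deoxycytidine kinase gene Dck (0.88 and 0.63) and Fcgr1, a high-affinity IgG receptor gene (0.88 and 0.49). Cd163 was nearest to Snph (0.91 and 0.91), Ggnbp1 (0.87 and 0.69) and Folr2, a folate receptor of macrophages (0.87 and 0.77). Up to 2 predicted genes or immunoglobulin segments per member ranked among these and are not named.

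Other genes of Kupffer cell identity were read from a list of 14 that holds none of the 7. Of all tested genes 1.93% rose at 30M against 6M and 0.0272% fell, the shares beside which each list count below stands. Of 13 tested in this list, 1 rose at 30M against 6M and none fell. Its median log2 fold change was 0.37, against 0.00284 over all tested genes. The gene that rose was Il18bp, the secreted binding protein of interleukin 18, with 16.3 CPM at 30M and 7.66 CPM at 6M (log2 fold change 1.09, SE 0.23, adjusted p = 0.0325, edgeR). Its call was lost when any 6M library or library 30M_216 or 30M_218 was left out, which left 0 genes of the list called. With only the 2 ages compared the list had 2 calls, Clec1b and Marco, and Il18bp was not among them. DESeq2 called 6 of the list, adding Timd4, Clec1b, Folr2, Marco and Fcna. For those 5 and Il18bp, 6 of 13 in all (46.2%), every 30M library was above every 6M library, beside the 9.89% of all genes. Kcna2, a potassium channel gene of the list, ran the other way, with 11.5, 9.84 and 11.1 CPM at 30M, all below its 14.3, 17.7 and 14.7 CPM at 6M (adjusted p = 0.235, edgeR).

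These genes, singled out after their values were seen, are known from Kupffer cells. Timd4, a phosphatidylserine receptor for dying cells, held 13.6, 4.10 and 1.81 CPM in libraries 30M_216, 30M_218 and 30M_220 and averaged 0.936 CPM at 6M (log2 fold change 2.77, SE 0.71, adjusted p = 0.0732, edgeR). Fcna, which encodes the lectin ficolin A, held 26.0, 5.58 and 5.24 CPM at 30M and averaged 1.58 CPM at 6M (2.95, SE 0.75, adjusted p = 0.0778). Fabp7, a fatty acid binding protein gene, was too low to be tested and held 5.40, 0.656 and 0.582 CPM at 30M and averaged 0.177 CPM at 6M. Folr2 held 18.5, 4.18 and 7.56 CPM at 30M and averaged 3.24 CPM at 6M (adjusted p = 0.166). Some 30M libraries lay below younger ones. Timd4 in 30M_220 was below the 3.61 CPM of 12M_206, and Folr2 in 30M_218 below the 6.35 CPM of 20M_222. Fabp7 in 30M_218 and 30M_220 was below the 0.812 CPM of 20M_222. Fcna in every 30M library was above its highest younger value, 4.88 CPM in 12M_206. Library 30M_216 was the highest for these 4. Over the 13 tested genes of the list it was the highest for 5 (38.5%) and 30M_218 for 6 (46.2%), beside 29.3% and 33.4% of all genes.

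Clec1b and Marco were more even. Clec1b, which encodes the podoplanin receptor CLEC-2, held 23.1, 31.2 and 19.9 CPM in the 30M libraries and averaged 10.7 CPM at 6M (log2 fold change 1.21, SE 0.31, adjusted p = 0.0698, edgeR). Marco, a scavenger receptor also found on alveolar macrophages, held 32.7, 34.4 and 18.2 CPM at 30M and averaged 10.2 CPM at 6M (1.48, SE 0.35, adjusted p = 0.0535). In 30M_220 Marco was below the 22.1 CPM of 20M_221, and Clec1b was little above the 18.6 CPM of 20M_213. Both came near the threshold without passing it; Clec1b was called without 20M_213 or 20M_222, Marco without 20M_221 or 30M_220, and Timd4 without 30M_220. Nr1h3, the nuclear receptor LXR alpha that maintains Kupffer cells and drives Cd5l in mice, averaged 50.1 CPM at 30M and 40.0 CPM at 6M (0.32, adjusted p = 0.511). Cdh5 and Id3 are also endothelial genes and were not called.

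**Figure D3:**
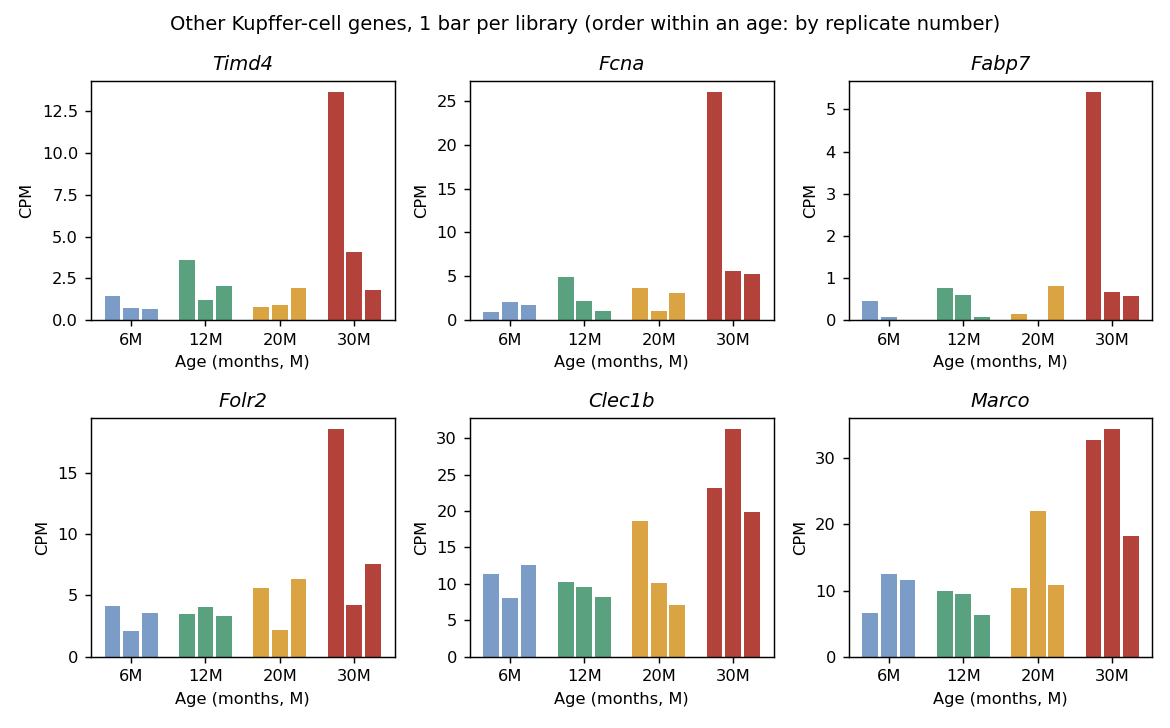
CPM of 6 other Kupffer cell genes in each library, 1 bar per library, by age in months. Timd4, Fcna, Fabp7 and Folr2 are highest in the first 30M bar, library 30M_216, while Clec1b and Marco are more even over the 30M bars. The last 30M bar of Marco, library 30M_220, is below that of library 20M_221.

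Genes of red pulp macrophages, the spleen's iron recyclers, were read from a list of 7 others, all tested. Of these, 3 rose at 30M against 6M (1.93% of all tested genes did) and none fell, with a median log2 fold change of 1.07. Itgad, the integrin alpha D gene, averaged 14.3 CPM at 30M and 0.748 CPM at 6M (log2 fold change 4.22, SE 0.64, adjusted p = 0.00584, edgeR). Treml4, a receptor that binds dead cells, averaged 23.5 CPM at 30M and 4.0 CPM at 6M (2.55, SE 0.40, adjusted p = 0.00677). Adgre1, which encodes the pan-macrophage marker F4/80, averaged 54.1 CPM at 30M and 13.9 CPM at 6M (1.96, SE 0.22, adjusted p = 0.000952). The calls of Itgad and Adgre1 held under all 18 alternatives, and that of Treml4 under all but the one without library 6M_203, which left 2 genes called.

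The 3 genes differed in their order over the 30M libraries. Itgad held 5.81 CPM in library 30M_216, 22.4 CPM in 30M_218 and 14.6 CPM in 30M_220, so 30M_216, the highest for Clec4f and Vsig4, was the lowest for Itgad. Treml4 held 23.2, 17.9 and 29.4 CPM, and Adgre1, highest in 30M_216, held 61.9, 51.2 and 49.3 CPM. Vcam1, Axl, Mertk and Kcnj10 were not called, among them Mertk with 40.3 CPM at 30M and 44.3 CPM at 6M.

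**Figure D4:**
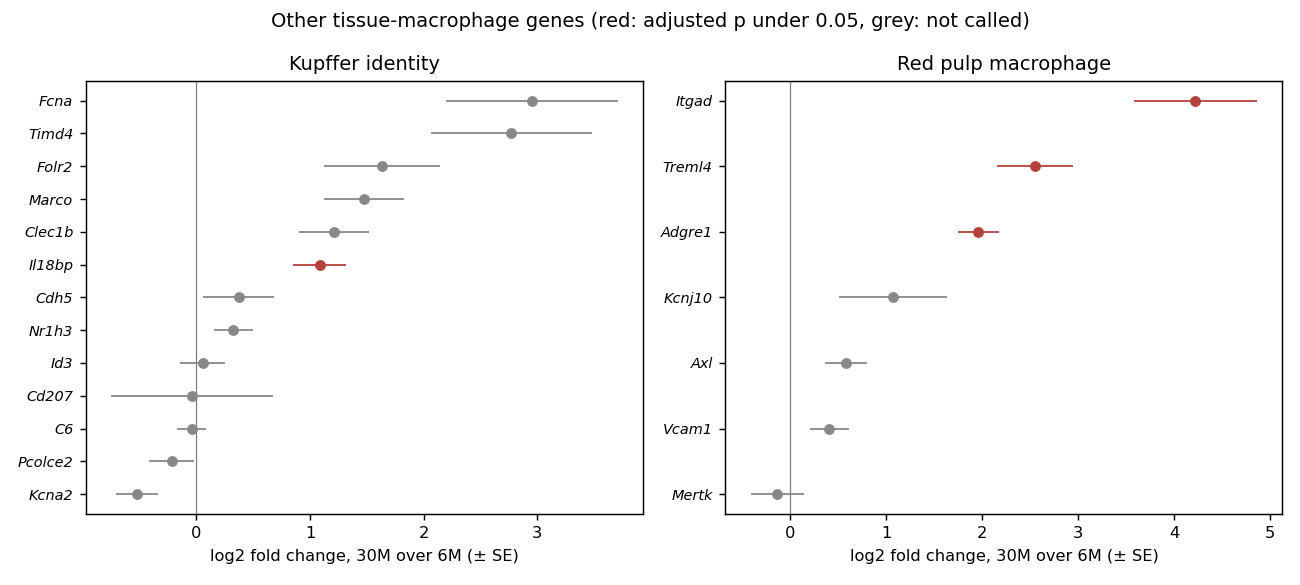
Log2 fold change of 30M over 6M with its SE for the tested genes of Kupffer cell identity (left) and of red pulp macrophages (right). Red points passed an adjusted p under 0.05. Il18bp passed on the left, and Itgad, Treml4 and Adgre1 passed on the right.

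Hmox1 and Slc40a1 act in a longer haem and iron route, read from 35 other genes of which 32 were tested. One rose at 30M against 6M, none fell, and the median log2 fold change was 0.06. The gene that rose was Slc11a1, which encodes the phagosomal metal transporter NRAMP1. It held 24.6, 35.6 and 47.2 CPM in libraries 30M_216, 30M_218 and 30M_220, and 8.14, 8.42 and 3.96 CPM in the 6M libraries (log2 fold change 2.39, SE 0.30, adjusted p = 0.00241, edgeR). Its call held under all 18 alternatives, and its lowest 30M library was 30M_216.

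The other steps of the route gave no call. The haem importer gene Slc48a1 averaged 146 CPM at 30M and 144 CPM at 6M (adjusted p = 0.982, edgeR). Biliverdin reductase B (Blvrb), which acts after haem oxygenase, averaged 25.9 CPM at 30M and 17.8 CPM at 6M, with every 30M library above every 6M library (log2 fold change 0.54, SE 0.17, adjusted p = 0.148). The ferritin genes Fth1 and Ftl1 had log2 fold changes of 0.07 and 0.23 (adjusted p = 0.942 and 0.705), and the transferrin receptor gene Tfrc had -0.35 (adjusted p = 0.431). DESeq2 called 4 of the list, Slc11a1, Steap4 and Hfe higher and Bmp2 lower. Hfe was also called by edgeR without 12M_207 or 12M_208, and Bmp2 without 30M_216, which made 2 genes in each case. These genes other than Slc11a1 were singled out after their values were seen.

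**Figure D5:**
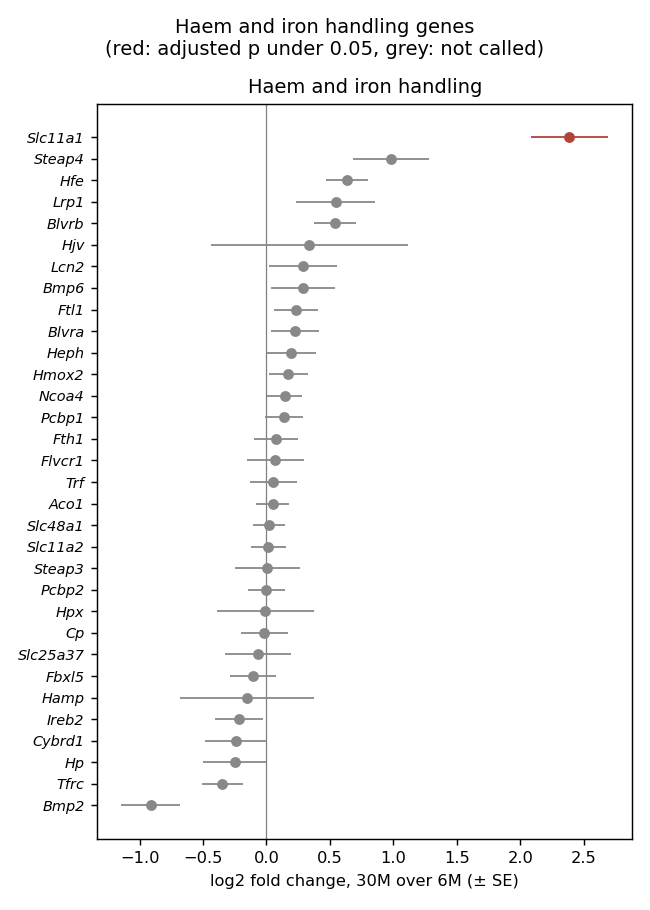
Log2 fold change of 30M over 6M with its SE for 32 other genes of haem and iron handling. Slc11a1, at 2.39, is the one that passed an adjusted p under 0.05 (red), and most of the others lie near 0.

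Receptors for scavenging and engulfment, the role of Cd5l, Vsig4 and Cd163, were read from 20 other genes, 19 of them tested, of which Timd4, Axl, Mertk and Lrp1 also stand in the lists above. Of these, 2 rose at 30M against 6M (1.93% of all tested genes did) and none fell, with a median log2 fold change of 0.17. Msr1 held 39.8, 12.4 and 7.44 CPM in libraries 30M_216, 30M_218 and 30M_220 and averaged 2.23 CPM at 6M (log2 fold change 3.15, SE 0.65, adjusted p = 0.0307, edgeR). Sirpa, the receptor for the "don't eat me" protein CD47, averaged 161 CPM at 30M and 89.3 CPM at 6M (0.85, SE 0.16, adjusted p = 0.0167). Msr1 lost its call without any 6M library or library 30M_216, and Sirpa without library 6M_201 or 6M_203 or library 30M_218. The list then had between 0 and 1 genes called.

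Transcription regulators known around Spic and the haem response were read from 14 other genes, of which Nr1h3 and Id3 also stand in the Kupffer cell list. Of these, 3 rose (1.93% of all tested genes did) and none fell, with a median log2 fold change of 0.30. Spi1, which encodes the myeloid ETS factor PU.1, a relative of SPI-C, averaged 75.5 CPM at 30M and 23.7 CPM at 6M (log2 fold change 1.67, SE 0.24, adjusted p = 0.00416, edgeR), a call kept under all 18 alternatives. Maf, which encodes a transcription factor of macrophages, averaged 56.9 CPM at 30M and 30.8 CPM at 6M (0.89, SE 0.19, adjusted p = 0.0346). It lost its call without any 6M library or library 30M_216 or 30M_218, which left Spi1 as the 1 gene of the list called. The haem-sensing repressor gene Bach1 and the NRF2 gene Nfe2l2 were not called.

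Target genes of LXR and of NRF2 give a view of these regulators beside the set: in mice Cd5l is a known target of LXR and Hmox1 of NRF2. Of 7 other LXR targets none was called by edgeR, 1 had an unadjusted p under 0.05, DESeq2 called 1, and the median log2 fold change was 0.09. Apoe averaged 712 CPM at 30M and 413 CPM at 6M (0.79, SE 0.20, adjusted p = 0.0722, edgeR) and was called without library 12M_208, and Arl4c had a log2 fold change of -0.24 (adjusted p = 0.700). Of 10 other NRF2 targets, G6pdx, the glucose-6-phosphate dehydrogenase gene, rose to 62.1 CPM at 30M, against 38.9 CPM at 6M (0.67, SE 0.15, adjusted p = 0.0404), and none fell. The median of that list was -0.12, and G6pdx lost its call, leaving 0, without any library of 6M or 30M, or library 12M_206 or library 20M_221.

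Markers of the tissue and of other cells were read beside these values. Lung epithelium genes summed to 40165 to 92362 CPM in every library, so all were lung by this measure. Genes of hepatocytes, the cells that surround Kupffer cells in liver, summed to 23.4 to 36.8 CPM at 30M and 30.5 to 33.3 CPM at 6M, and 1 of 9 tested was called. That was Serpina1b, with 42 counts at 30M and 0 at 6M, a member of a family of near-identical copies between which counting is uncertain; without 6M_203 it was not called, which left 0. Apoa1 and Ttr had 1 count each over the 3 libraries of 30M, Serpina1a and Mup20 had 0 in every library, and Alb held 0.806, 2.46 and 0.453 CPM at 30M, less than the 3.98 CPM of library 12M_206. Fga, Fgg and Serpina1d ran the other way, with their highest value of all libraries, 2.50, 4.68 and 1.29 CPM, in 30M_216. Libraries 30M_216 and 30M_220 were each the highest of 30M for 4 of the 9 tested (44.4%), beside 29.3% and 37.3% of all genes. Cyp2e1, Vtn and Pck1, the most abundant of this list, were not called.

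Markers of lung macrophages and blood cells were read in the same way. All 9 interstitial macrophage genes, among them the complement genes C1qa, C1qb and C1qc and Csf1r, rose at 30M, to a summed 658 to 716 CPM, against 232 to 287 CPM at 6M. Adgre1, already given above, is among the 9. None of 11 alveolar macrophage genes was called by edgeR and 4 had an unadjusted p under 0.05, with a median log2 fold change of -0.30. Of 7 monocyte genes, with a median log2 fold change of 2.11, Vcan and F13a1 rose, beside 1.93% of all tested genes. Every 30M library was above every 6M library for 5 of the 7 (71.4%), beside 9.89% of all tested genes. Erythroid genes summed to 1251 to 1321 CPM at 30M and 519 to 1128 CPM at 6M, but reached 2335 CPM in library 12M_208, and 1 of 7 tested, the red cell anion exchanger gene Slc4a1, rose (10.8 CPM at 30M and 0.885 CPM at 6M, adjusted p = 0.0358, edgeR). The haemoglobin genes Hbb-bs, Hba-a1 and Hbb-bt, the most abundant of that list, were not called. Skeletal muscle genes, led by Acta1, Myh1 and Ckm, summed to 3301 CPM in library 20M_222 and to at most 41.0 CPM elsewhere. Their part in the levels of the 7 genes was not tested.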

How the data were processed

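Whole-lung RNA of 12 libraries was analysed, 3 per age. Per the labels' protocols, RNA was extracted with ISOGEN II, poly-A selected and sequenced as paired ends on an Illumina platform. The deposited values are whole-number read counts per gene, not normalized by the authors. Per the submitters' processing notes, FastQC 0.11.7, Trimmomatic 0.38, HISAT2 2.1.0, featureCounts and GRCm38 (mm10) were used; neither the annotation release nor the strand setting is given there, and without strand, reads of a gene and an antisense partner cannot be told apart.

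Counts were tested with edgeR 4.0.16 (R 4.3.3; TMM scaling, filterByExpr by age with a minimum count of 10, robust quasi-likelihood fit over all 12 libraries), with Benjamini-Hochberg adjustment over 18407 tested genes and calls at an adjusted p under 0.05. Log2 fold changes are the older over the younger age. CPM use TMM library sizes, correlations log2 CPM with a prior count of 2, and counting intervals are exact at 95% and cover counting error only. Within each age no libraries differed by so little as to be one library deposited in duplicate. The script was tested on simulated counts with known changes.

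The 7 genes, the 14 gene lists and the tests were chosen with earlier results of these data known. The rule for names was all 7 members; called genes of a list, where 6 or fewer; the 2 with the smallest p of a list with none; the 3 most similar tested genes per member; and the 3 most abundant hepatocyte, erythroid and muscle markers. Every other gene named was chosen after its values were seen. The values of 1 called gene of the regulator list are not reported here. Alternatives were DESeq2 1.42.0, its size factors in edgeR, no filter, at least 1 CPM in 3 libraries, only the 2 ages compared, leaving out 3 libraries (20M_221, 20M_222 and 30M_220) in which an earlier analysis found a GC trend, and leaving out each library in turn. Promoters came from RefSeq (GRCm38.p6).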

Additional observations from a re-analysis of the deposited data

How the results depend on the processing

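No paired analysis was possible because the ages have no replicate number in common. Of 18 alternatives, the count of members called at 30M against 6M (4) kept within 1.5 times in 11, and was 2 with no filter and 2 with the 2 ages alone, with 0 to 4 when single libraries were left out. Against 12M (2) it was 4 by DESeq2, 1 with no filter and 1 with the 2 ages alone (0 to 2 without single libraries), and against 20M (1) it was 4 by DESeq2 and 0 with DESeq2 size factors, with the 2 ages alone and without the 3 libraries with a GC trend (0 to 3). Among the 3 younger ages the count was 0 in all 18 for every pair. Vsig4 had a fitted value in 17 of them for each pair, and Cd5l in 17 for 12M and for 20M over 6M. For Kupffer identity genes (1) it was 6 by DESeq2, 2 with no filter, 2 with the 2 ages alone and 4 without the GC-trend libraries (0 to 3 without single libraries), and for red pulp genes (3) it was 2 or 3 throughout. Haem and iron genes (1) gave 4 by DESeq2 and 2 with the 2 ages alone (1 to 2), scavenging receptors (2) gave 1 with no filter and 1 with the 2 ages alone (0 to 3), and regulators (3) gave 1 to 3. LXR targets (0) gave 1 by DESeq2, 1 with no filter and 1 with the 2 ages alone (0 to 1), NRF2 targets (1) gave 0 without the GC-trend libraries (0 to 1), and hepatocyte genes (1) gave 0 with at least 1 CPM in 3 libraries (0 to 1). Over all genes, 361 were called at 30M against 6M (356 higher, 5 lower), 753 by DESeq2 (671 higher, 82 lower) and 69 to 415 without single libraries; 20M against 12M gave 0, 9 by DESeq2 and 0 without single libraries. The log2 fold change of 20M over 12M ran from -2.70 to 0.152 for Cd5l and from -1.02 to 0.836 for Vsig4 without single libraries. Its sign turned for Cd5l (-1.19) to 0.0473 without the GC-trend libraries and 0.152 without library 12M_206, and for Vsig4 (-0.16) to 0.805 and 0.836, and to 0.120 and 0.150 without library 20M_221 or 20M_222. The cause of these changes was not tested. The median log2 fold change of all genes at 30M against 6M stayed between -0.0188 and 0.00896. Counts of 11 to 13 per age limit Vsig4 at the younger ages.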
